A study of Mus musculus with 3 samples.

Results

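The genes described here encode parts of the pre-mRNA splicing machinery and have symbols that begin with Srsf, Sf3, Snrp or Hnrnp. Membership rested on names alone: a probe set belonged when the array's annotation gave it exactly 1 gene symbol and that symbol had one of these beginnings. The rule found 139 of 45037 noncontrol probe sets, which stand for 47 of 18193 genes. They were 10 Srsf genes with 33 probe sets, 9 Sf3 genes with 30, 9 Snrp genes with 18 and 19 Hnrnp genes with 58. A further 16 probe sets list such a symbol beside another gene's symbol and were left out, so these families are not covered in full. Expression was read on 3 Affymetrix arrays of mouse dendritic cells grown from bone marrow, 1 array per treatment. The marrow donors were female mice kept to an age of 6 weeks, the medium held GM-CSF at 20 ng/mL, and the nonadherent cells of day 7 were used. These culture conditions were the same for all 3 groups. Each then had 24 h with PBS (the control), with lipopolysaccharide from bacteria (LPS) at 1 µg/mL or with an agent named PTX, an abbreviation that the labels leave unexpanded, at 100 ng/mL. The strain is given as C57BL/6 for the PBS and LPS samples and as C57BL/7 for the PTX sample, and whether the cultures shared a mouse or a marrow preparation is not stated. Each array started from 3 µg of total RNA. With 1 array per group no difference has a replicate check, and none was tested.

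The spliceosome removes introns in steps that these families serve in different ways. The U2 small nuclear ribonucleoprotein (snRNP) marks the branch point through its SF3A and SF3B subcomplexes, and the Sm proteins form a ring on the RNA of most spliceosomal snRNPs. SR proteins bind exonic sequences through RNA recognition motifs, recruit the core machinery through a domain rich in arginine and serine, and depend on phosphorylation by the SRPK and CLK kinases. The hnRNP proteins coat nascent transcripts, often oppose SR proteins at splice sites, and act in RNA export, stability and translation. Many genes of the SR and hnRNP families also make transcripts with a poison exon or a retained intron that are degraded or kept in the nucleus, so probe sets of 1 gene can read different transcripts.

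A gene was read through its brightest probe set, judged by the average of log2(intensity + 16) over the arrays. It counted as measured when this probe set reached 78.9, the median of all noncontrol values, on at least 1 array, and as higher or lower when 2 arrays differed by at least 2-fold on that scale (a log2 difference of at least 1). The LPS array stood apart in several respects. Its median intensity was 65.3, against 85.7 on the PBS array and 86.9 on the PTX array, and 44.7% of its probe sets reached the measured level, against 52.5% and 52.8%. For 18S ribosomal RNA the 3′ probe set over the 5′ one gave 1.95 in LPS, 0.26 in PBS and 0.20 in PTX, whereas this ratio lay between 0.96 and 1.40 for Gapdh and beta-actin on the 3 arrays. The median of 18 bacterial hybridization controls was 0.20 (log2) above PBS in LPS and 0.01 in PTX. The part of these array differences in the LPS values of the splicing genes was not tested. Of 16 dendritic cell markers 15 were measured, among them Itgax, Cd74 and Ccr7, and Cd209a was not.

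The splicing genes were bright. The 45 measured ones had a median mean level of 10.63 on the log2 scale, against 8.26 over 12299 measured genes, and all 45 lay above that overall median. Srsf12 (highest intensity 14.3) and Snrpn (42.4) were not measured. Of the 139 probe sets 117 reached the measured level on 3 arrays, 10 on 1 or 2 arrays, and 12 on none of them. By mean signal, which does not rank amounts of RNA between genes, the brightest were Srsf5 and Srsf1 among SR proteins, Sf3b1 and Sf3b6 in SF3, Snrpe and Snrpg among snRNP proteins, and Hnrnpdl and Hnrnpc among hnRNP proteins.

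After PTX most splicing genes read a little below the PBS array and few lay far from it. Of the 45 genes 37 were below 0 in PTX against PBS, where 49.3% of all measured genes were, and their median log2 difference was -0.19 against 0.01 over all genes. At least 2-fold lower were 2 genes, the SR protein gene Srsf3 and the Sm protein gene Snrpf, beside 2.37% of all measured genes, and 0 were at least 2-fold higher, beside 3.04%. At 1.5-fold the counts were 6 lower (6.29% of all genes) and 1 higher (7.44%). Among the 4100 brightest measured genes, which are closer to the members in signal, 45.4% were below 0, 1.66% were lower and 5.1% higher. The members' median minus that of all genes lay between -0.25 and -0.18 as deposited and in each setting tried. With the values as deposited and under the 4 other scalings 37 to 39 of the 45 genes were below 0. In bulk RNA, fewer cells that express a gene and less of its RNA per cell cannot be told apart.

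**Figure D1:**
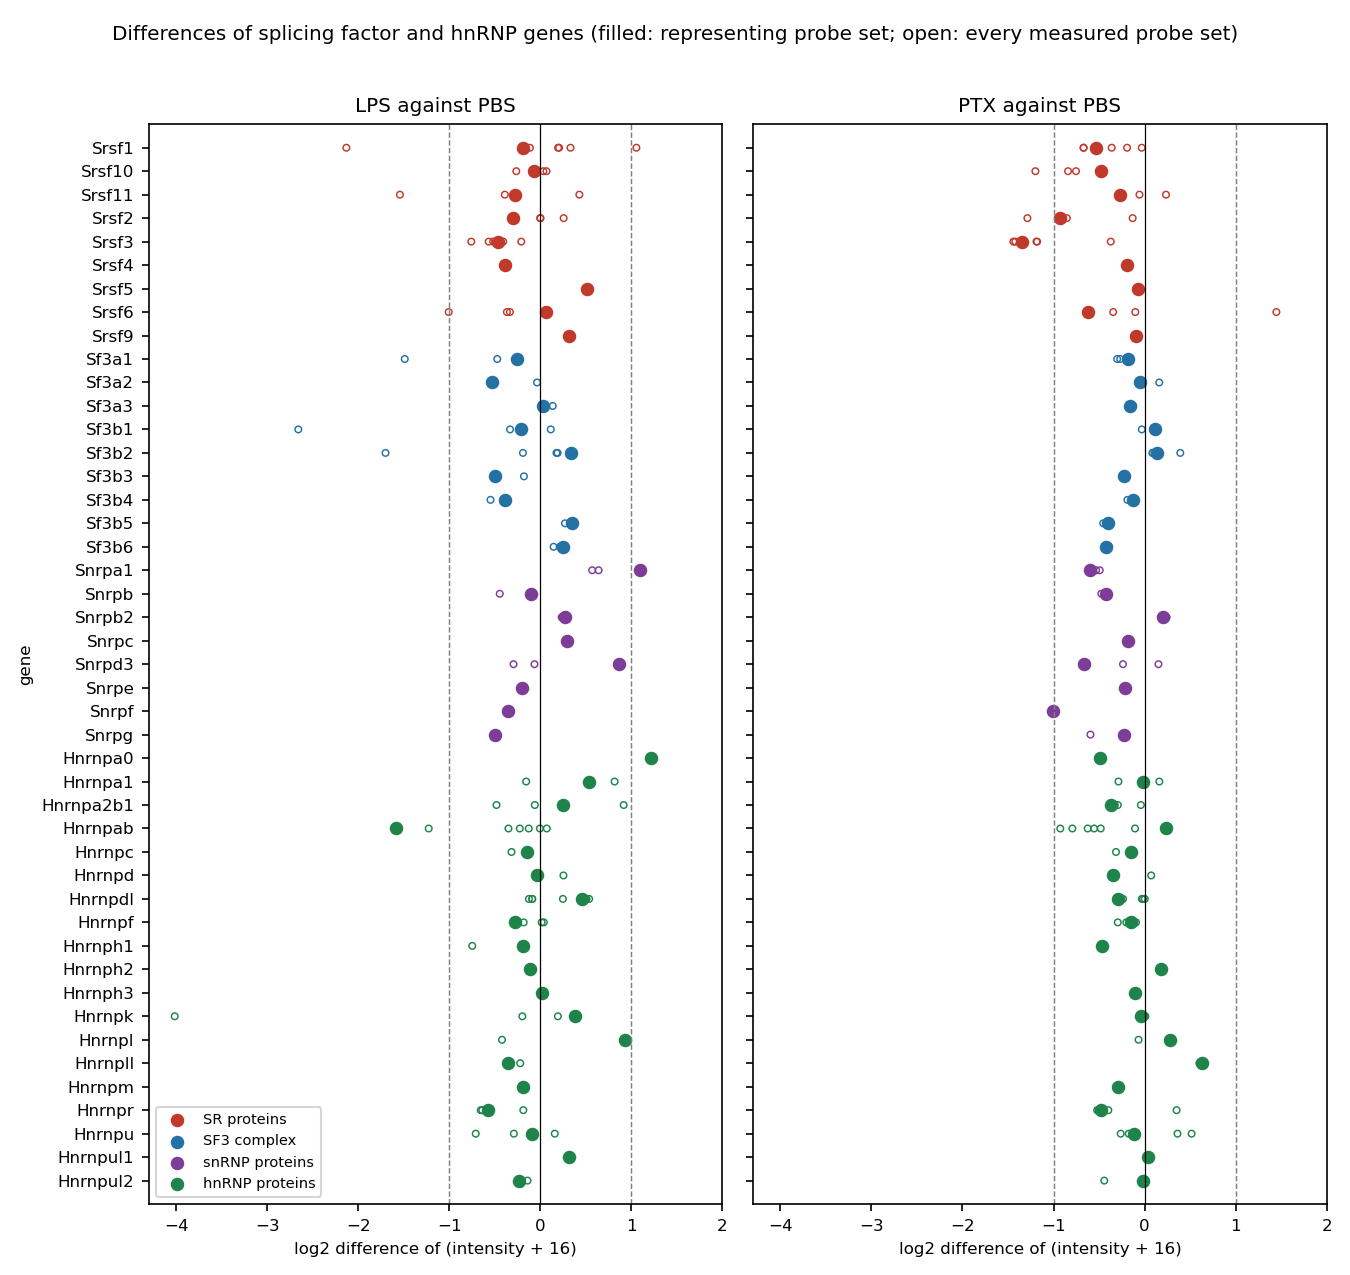
Log2 differences of the 45 measured splicing genes in LPS against PBS and in PTX against PBS, grouped by family; filled points are the brightest probe set of a gene, open points are every measured probe set, dashed lines mark 2-fold, and single arrays allow no error bar. The filled points of the SR genes all lie below 0 in PTX, from -1.35 to -0.07, whereas in LPS filled points lie on both sides, with Hnrnpa0 (1.22) and Snrpa1 (1.10) highest and Hnrnpab (-1.59) lowest.

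Of the 4 families the SR proteins had the lowest median after PTX when each gene was read through its brightest probe set. The order of the families turns on that choice. Relative to all genes, SR against snRNP stood at -0.19 against -0.33 with the mean of all probe sets, at -0.23 against -0.33 with the median of measured ones and at -0.27 against -0.49 without probe sets ending in _s_at or _x_at, so snRNP was the lower in these. The windows below show what lies upstream of 4 SR genes with several measured probe sets, all lower in PTX than in PBS. The 250 bases before the RefSeq start (GRCm38.p6) are printed 5′ to 3′ on the gene's strand for Srsf3 (chr17:29032410-29032659, plus), Srsf2 (chr11:116853095-116853344, minus), Srsf10 (chr4:135855821-135856070, plus) and Srsf1 (chr11:88047123-88047372, plus). Srsf5 (chr12:80945249-80945498, plus) is added as an SR gene that read nearly alike on the PBS and PTX arrays. Its single probe set was slightly lower in PTX (-0.07). Srsf6, whose probe sets disagreed in direction, is not shown, and the choice was made after the values were seen. Capitals mark matches on either strand to short motifs, namely CCAAT (read by NF-Y), TATAAA (the TATA box), GGGCGG (the GC box), CCGGAAG (ETS factors), GCGCATGC (NRF1), TGACGTCA (CREB), TTTCCCGC (E2F) and TTTCNNTTT (the interferon-response core).
Srsf3: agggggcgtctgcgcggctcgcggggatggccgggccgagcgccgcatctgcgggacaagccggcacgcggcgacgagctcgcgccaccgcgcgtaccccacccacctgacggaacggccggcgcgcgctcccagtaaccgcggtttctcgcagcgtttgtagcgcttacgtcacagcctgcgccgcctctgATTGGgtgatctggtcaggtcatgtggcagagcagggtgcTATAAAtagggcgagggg
Srsf2: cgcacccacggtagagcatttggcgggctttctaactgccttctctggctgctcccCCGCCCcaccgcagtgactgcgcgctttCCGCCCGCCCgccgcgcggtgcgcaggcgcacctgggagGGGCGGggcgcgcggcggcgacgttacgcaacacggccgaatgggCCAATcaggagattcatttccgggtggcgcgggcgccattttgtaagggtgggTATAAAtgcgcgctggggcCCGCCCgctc
Srsf10: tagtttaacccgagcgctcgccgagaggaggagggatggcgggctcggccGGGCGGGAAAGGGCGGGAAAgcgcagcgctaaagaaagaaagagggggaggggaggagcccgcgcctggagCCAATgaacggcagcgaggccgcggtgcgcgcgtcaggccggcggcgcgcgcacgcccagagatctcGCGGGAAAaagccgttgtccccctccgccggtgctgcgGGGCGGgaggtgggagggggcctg
Srsf1: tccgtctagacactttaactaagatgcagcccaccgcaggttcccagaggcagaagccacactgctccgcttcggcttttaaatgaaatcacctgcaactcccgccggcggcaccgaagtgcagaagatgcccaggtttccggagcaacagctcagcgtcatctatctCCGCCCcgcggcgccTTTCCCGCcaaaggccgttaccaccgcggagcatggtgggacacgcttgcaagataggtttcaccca
Srsf5: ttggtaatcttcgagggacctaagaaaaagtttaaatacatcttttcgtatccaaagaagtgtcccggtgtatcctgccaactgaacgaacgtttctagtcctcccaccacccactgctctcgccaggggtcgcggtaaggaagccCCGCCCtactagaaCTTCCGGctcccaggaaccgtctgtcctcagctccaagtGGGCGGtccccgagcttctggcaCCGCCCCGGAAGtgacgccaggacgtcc

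These windows are rich in G and C. The share of G and C was 69.6% for Srsf3 and for Srsf2, 72% for Srsf10, 58.8% for Srsf1 and 56.8% for Srsf5, and its median was 60.6% over 58 windows of 42 member genes and 52.4% over 32851 windows of all genes. GGGCGG was found in 12 of 13 SR windows and 38 of 58 member windows (65.5%), against 32.7% of all windows. CCGGAAG was found in 31% of member windows against 6.91% of all. CCAAT was found in 44.8% against 33.8%, and TATAAA in 8.62% against 12.4%. Among the 13 SR windows CCAAT was found in 3 and TATAAA in 2. The 3 are the windows of Srsf3, Srsf2 and Srsf10 printed above, so the printed windows hold it more often than the SR family does. Srsf3 and Srsf2 held both CCAAT and TATAAA, the latter 18 to 13 and 29 to 24 bases before the start. Srsf10 held TTTCCCGC at 3 places (2 of them overlap GGGCGG) and Srsf1 held it at 1, and 4 of the 58 member windows did so (6.9%) against 0.89% of all. TTTCNNTTT was in 1 member window (1.72%) and in 9.37% of all. GCGCATGC was in 2 (3.45%, against 2.26%) and TGACGTCA in 1 (1.72%, against 1.55%). The part of the members' higher share of G and C in these counts was not tested. In addition, several windows belong to 1 gene, and a match describes letters, not binding.

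All 9 measured SR protein genes read lower on the PTX array than on the PBS array, from -1.35 to -0.07 with a median of -0.48, and 30 of their 32 measured probe sets did. Of these probe sets 7 were at least 2-fold lower and 1 was higher, where 2.19% and 2.76% of all measured probe sets were. Srsf3 supplied 5 of the 7, and Srsf2 and Srsf10 supplied 1 each. By gene, 1 of the 9 was at least 2-fold lower. Srsf3, the smallest SR protein, which shuttles between nucleus and cytoplasm and also serves RNA export, read 3022 in PBS, 2178 in LPS and 1177 in PTX. It was 2.55-fold lower in PTX than in PBS (-1.35) and ranked 169th from the lowest of 12299 genes. The other Srsf3 probe sets gave the same picture with 1 exception. Of these, 4 differed by between -1.44 and -1.18, for example 902 (PBS), 676 (LPS) and 327 (PTX) for 1454993_a_at, and the dimmest, 1438215_at, differed by -0.37 with 279, 183 and 212. In LPS against PBS the 6 Srsf3 probe sets lay between -0.76 and -0.21.

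Srsf2 (SC35), which marks nuclear speckles and binds exonic enhancers, came next. Its representing probe set read 2582 in PBS, 2095 in LPS and 1348 in PTX (-0.93), just short of 2-fold. Another, 1415807_s_at, read 688, 687 and 273 (-1.29), and 1452439_s_at read 1630, 1949 and 895 (-0.85). The fourth, 1427816_at, which is dim and the only Srsf2 probe set whose name does not end in _s_at, read 226, 226 and 205 (-0.13), so the Srsf2 value rests on probe sets that can match more than 1 transcript. Srsf10, a regulator that turns repressor on dephosphorylation, read 948 in PBS, 901 in LPS and 675 in PTX (-0.48). Its other probe sets differed by -0.75, -0.84 and -1.20, the last with 533, 559 and 223. Each Srsf10 probe set was thus lowest on the PTX array, while those of LPS against PBS stayed between -0.26 and 0.07. Srsf1 (SF2/ASF), the founding SR protein, read 2480, 2167 and 1708 (-0.53), and its 7 probe sets lay between -0.67 and -0.03 in PTX against PBS.

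The remaining SR genes differed less or less evenly. Srsf6 read 2321 in PBS, 2420 in LPS and 1509 in PTX (-0.62) by its brightest probe set. A second Srsf6 probe set, 1416720_at, went the other way with 507, 389 and 1412 (1.45) and was the single member probe set at least 2-fold higher in PTX. The mean over the Srsf6 probe sets was 0.096. Srsf11 read 1961, 1608 and 1626 (-0.27) and Srsf4 935, 707 and 818 (-0.19). Srsf5, a gene that growth signals are known to induce, read 3764, 5382 and 3591, close on PBS and PTX (-0.07) and highest on the LPS array (0.51). Srsf9 read 1915, 2380 and 1798 (-0.09 in PTX and 0.31 in LPS). Over all SR genes the median in PTX was -0.19 with the probe sets of a gene averaged and -0.22 with the median of measured ones. It was -0.27 without probe sets ending in _s_at or _x_at, so its size depends on the probe sets taken. In LPS against PBS the SR median was -0.19, with 0 of 9 genes at least 2-fold apart, and it turned positive with median centring (0.20) and with 75th percentile centring (0.11).

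**Figure D2:**
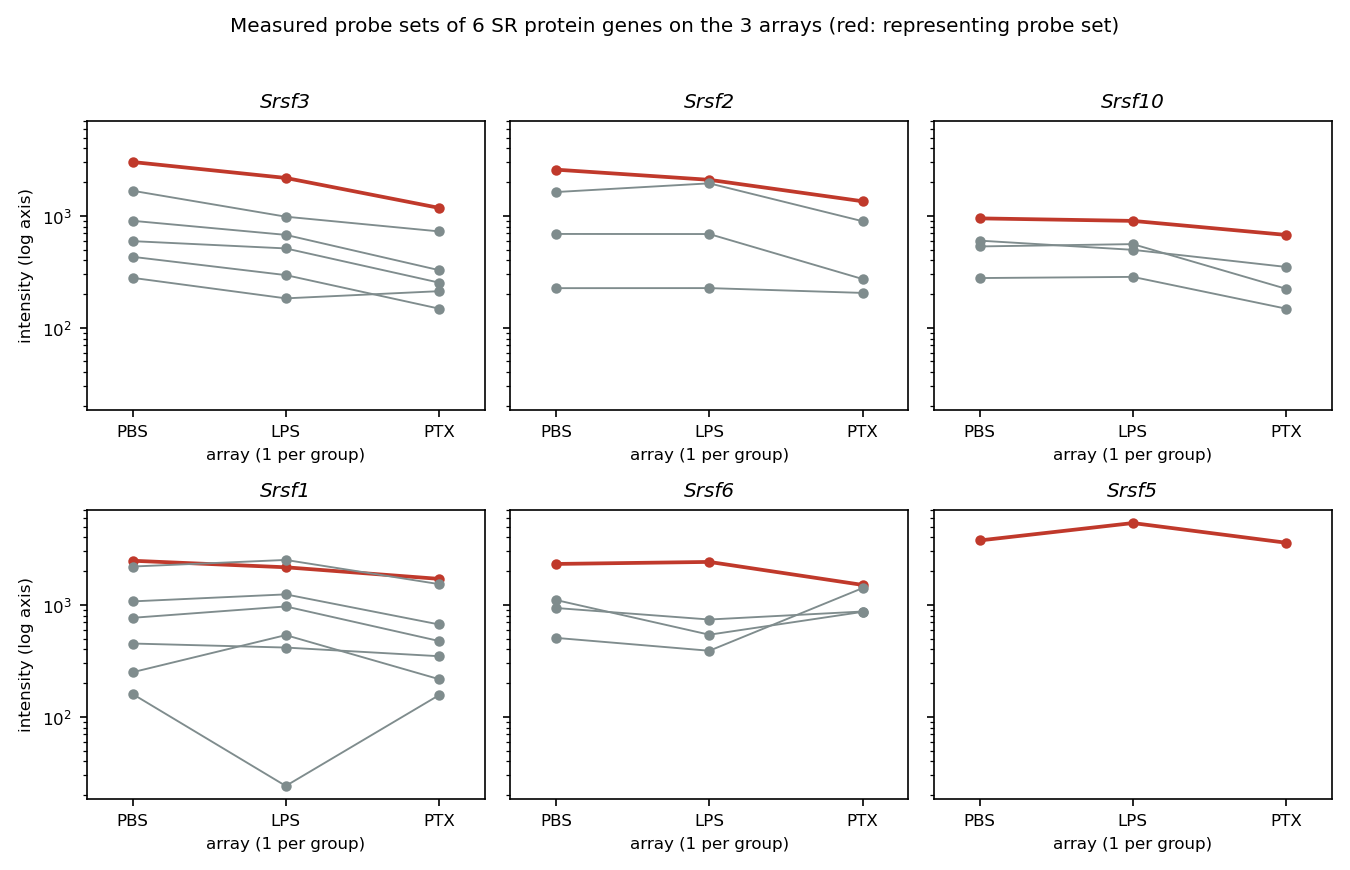
Intensity on a log scale of each measured probe set of 6 SR protein genes on the PBS, LPS and PTX arrays; a line (red for the brightest probe set) joins the values of 1 probe set, and lines of different height are different probe sets whose levels are not comparable. For Srsf3 and Srsf10 the lines end lowest at PTX in all but 1 Srsf3 probe set, whereas 1 Srsf6 line rises to 1412.

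The SF3 genes, which encode the branch point part of the U2 snRNP, stayed near the PBS level after PTX. Of the 9 genes 7 were below 0, the median was -0.16, and 0 were 1.5-fold apart. Sf3b6 (p14, which contacts the branch point adenosine) read 2000 in PBS, 2386 in LPS and 1487 in PTX (-0.42), and its 3 measured probe sets lay between -0.43 and -0.39. Sf3b5 read 1524, 1946 and 1150 (-0.40), and its second measured probe set gave -0.45. These 2 small subunits were thus the lowest of SF3 in PTX and among the highest in LPS (0.25 and 0.35). Sf3b1, the large HEAT-repeat scaffold of SF3B, read 2714, 2335 and 2950 (0.12 in PTX), and its partner Sf3b2 1309, 1658 and 1438 (0.13). In LPS against PBS Sf3a2, a core subunit of SF3A, read 930 against 1353 (-0.53) and Sf3b3 509 against 725 (-0.50), and 0 of 9 were at least 2-fold apart. The SF3 median in LPS was -0.22 as deposited and 0.17 with median centring, so its sign depends on the scaling.

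Among snRNP proteins the larger differences were in Snrpa1, Snrpd3 and Snrpf. Snrpa1, a protein of the U2 snRNP, read 336 in PBS, 739 in LPS and 217 in PTX. It was 2.14-fold higher in LPS than in PBS (1.10) and read below PBS in PTX (-0.60), and its other probe sets had the same order of arrays, with 0.57 and 0.64 in LPS and -0.49 and -0.53 in PTX. For Snrpd3, an Sm ring protein, the bright probe set read 1324, 2415 and 831 (0.86 in LPS and -0.66 in PTX). Its dimmer ones were nearly level at 204, 195 and 229 and at 111, 87.8 and 92.1, so Snrpd3 rests on 1 of 3 probe sets. Snrpf, another Sm protein, with a single probe set, read 826, 645 and 402, which is 2.01-fold lower in PTX than in PBS (-1.01) and lies at the edge of the 2-fold rule. With a pseudocount of 64 it passed no longer. Snrpb, the Sm protein whose level is known to feed back on its own splicing, read 2764, 2573 and 2055 (-0.42 in PTX) and its second probe set gave -0.48. Snrpb2, which binds the U2 RNA together with the Snrpa1 protein, read 1401, 1700 and 1619 and was the 1 snRNP gene above 0 in PTX (0.21), with 0.24 in its other measured probe set. Snrpc of the U1 snRNP read 1273, 1563 and 1118 (-0.18 in PTX). Snrpg read 3169, 2239 and 2715 (-0.50 in LPS and -0.22 in PTX) and Snrpe 4011, 3485 and 3441 (-0.20 and -0.22). The 8 genes had a median of -0.32 in PTX, with 7 below 0. In LPS their median was 0.09, and it fell below 0 with quantile normalization (-0.093) and with centring on the hybridization controls (-0.14).

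The hnRNP genes held the largest differences in LPS. Hnrnpa0, which stabilises mRNAs with AU-rich elements, such as those of cytokines, read 973 in PBS, 2279 in LPS and 687 in PTX. It was 2.32-fold higher in LPS than in PBS (1.22) and read below PBS in PTX (-0.49), and it has a single probe set. The windows of Hnrnpa0 (chr13:58128557-58128806, minus) and Snrpa1 (chr7:66060086-66060335, plus), the 2 members at least 2-fold higher in LPS, are shown in the same way as those above.
Hnrnpa0: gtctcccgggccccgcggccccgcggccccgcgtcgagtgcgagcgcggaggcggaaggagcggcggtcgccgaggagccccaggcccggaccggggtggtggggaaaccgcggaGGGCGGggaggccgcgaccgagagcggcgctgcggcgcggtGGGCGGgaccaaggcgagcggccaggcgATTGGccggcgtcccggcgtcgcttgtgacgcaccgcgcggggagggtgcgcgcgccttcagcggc
Snrpa1: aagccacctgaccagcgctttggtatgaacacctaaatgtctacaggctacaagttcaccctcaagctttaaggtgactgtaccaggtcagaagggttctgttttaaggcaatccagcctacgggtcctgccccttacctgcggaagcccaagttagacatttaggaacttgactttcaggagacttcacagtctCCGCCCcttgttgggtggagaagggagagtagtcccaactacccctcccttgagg

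The Hnrnpa0 window held CCAAT and GGGCGG at 2 places, with 81.2% G and C, and the Snrpa1 window held GGGCGG at 1 place, with 51.6%. Hnrnpl, a regulator that binds CA repeats and silences variable exons of Cd45, read 835 in PBS, 1605 in LPS and 1018 in PTX (0.93 in LPS, short of 2-fold), while its dim second probe set differed by -0.42. Its paralog Hnrnpll, which also acts on Cd45 exons, differed in the other sense. It read 1368, 1064 and 2135 and was the highest member gene in PTX against PBS (0.64). Its second probe set read 1038, 888 and 1584 (0.60), so both Hnrnpll probe sets were highest on the PTX array and lowest on the LPS array.

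Hnrnpab, which binds RNA and also occurs on promoters as CBF-A, depended on the probe set. Its brightest probe set read 4795 in PBS, 1584 in LPS and 5629 in PTX (-1.59 in LPS and 0.23 in PTX), which is 3.01-fold lower in LPS. The next 3 by brightness differed little in LPS against PBS (-0.35, -0.01 and 0.07) and lay below PBS in PTX (-0.48, -0.62 and -0.79). The dimmest, 1459880_at, was also at least 2-fold lower in LPS, with 121 in PBS, 42.4 in LPS and 111 in PTX (-1.23 in LPS). Over the 7 measured Hnrnpab probe sets 6 were below 0 in PTX against PBS, and the median was -0.23 in LPS and -0.55 in PTX. Hnrnpr read 1299, 864 and 929 (-0.58 in LPS and -0.48 in PTX), with -0.65 and -0.64 in LPS in its next probe sets. Hnrnpdl, the brightest member on average, read 4037, 5554 and 3284 (0.46 and -0.30). Hnrnpc, a nuclear protein that binds uridine tracts, read 4467, 4038 and 4018 (-0.15 in both), and Hnrnpk 3796, 4934 and 3690 (0.38 and -0.04). The 19 hnRNP genes had medians of -0.10 in LPS and -0.12 in PTX, with 14 below 0 in PTX, and the LPS median was 0.29 with median centring.

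Over all members, LPS against PBS gave 2 genes at least 2-fold higher, Hnrnpa0 and Snrpa1, beside 6.5% of all measured genes, and 1 lower, Hnrnpab, beside 13%. Among the 4100 brightest genes 8.1% were higher and 5.17% lower. The median was -0.10 against -0.08 over all genes, and 26 of 45 genes were below 0 (56% of all). Among the 4100 brightest genes the median was 0.11 and 42% were below 0. The count of members below 0 was 8 with median centring, 10 with the 75th percentile, 28 with quantile normalization and 29 with the hybridization controls. Relative to the median of all genes the members lay at -0.02 as deposited and with centring on the median, the 75th percentile or the hybridization controls, and at -0.40 with quantile normalization. The scaling moved the median of all genes from -0.08 to 0.31 with median centring, 0.23 with the 75th percentile, 0.11 with quantile normalization and -0.30 with the hybridization controls. Of all genes at least 2-fold apart 33.3% were higher as deposited, 61.4% with median centring, 54.8% with the 75th percentile, 45.6% with quantile normalization and 20.9% with the hybridization controls. Nearest to 2-fold in this comparison were Snrpa1 (1.10) inside and Hnrnpl (0.93) outside, and in PTX against PBS Snrpf (-1.01) inside and Srsf2 (-0.93) outside.

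Several low values in LPS belonged to single probe sets whose gene read level elsewhere, a pattern chosen after the values were seen. Of 127 measured member probe sets 9 were at least 2-fold lower in LPS (16.3% of all measured probe sets) and 3 were higher (6.23%). Hnrnpk 1454692_x_at read 2154 in PBS, 118 in LPS and 2164 in PTX (-4.02), while the other Hnrnpk probe sets differed by 0.38, 0.19 and -0.20 in LPS. Sf3b1 1418562_at read 1786, 269 and 1748 (-2.66), while the other Sf3b1 probe sets lay between -0.33 and 0.11. Sf3b2 1429362_a_at read 653, 190 and 862 (-1.70), while the others lay between -0.19 and 0.34. In Srsf1 the probe sets disagreed in direction: 1457136_at read 160, 24.2 and 156 (-2.13) and 1452430_s_at read 250, 537 and 217 (1.05). In PTX against PBS these 5 probe sets lay between -0.19 and 0.39. Over the 20 member genes with at least 3 measured probe sets, 8 of 88 probe sets lay at least 2-fold below the median of their gene's others in LPS against PBS (9.09%, against 12.2% over all such genes). In PTX against PBS 0 of 88 did (0.624% over all such genes), and 1 lay above, the Srsf6 probe set (0.647%). The share of such low probe sets in LPS was not above that in all genes. Whether it comes from the LPS array, whose 18S ratio and controls differ as given above, was not tested.

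**Figure D3:**
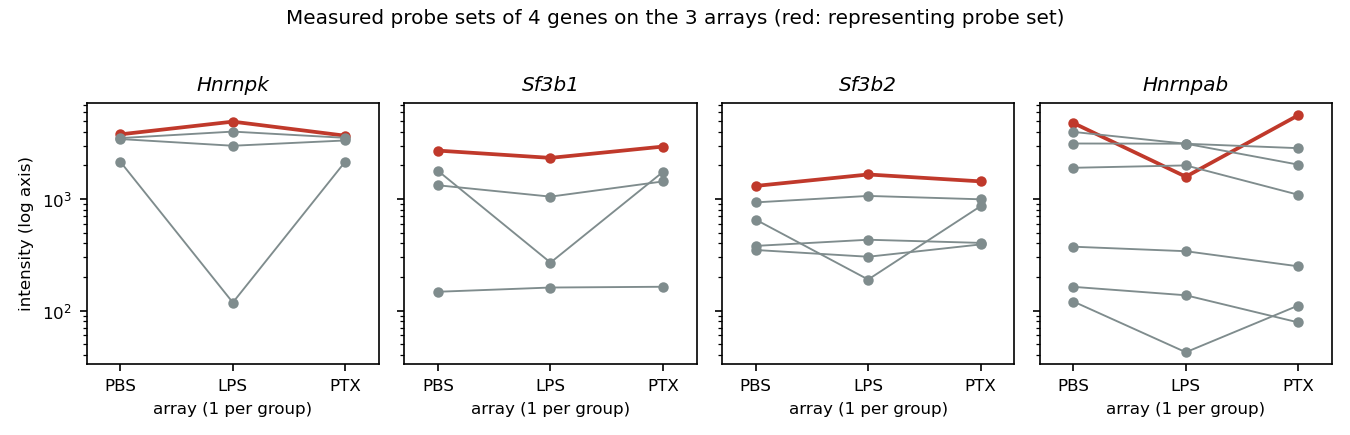
Intensity on a log scale of the measured probe sets of Hnrnpk, Sf3b1, Sf3b2 and Hnrnpab. These are 4 of the genes in which a probe set lay far below the gene's others in LPS against PBS. Others, such as Srsf1, are not shown, and the choice was made after the values were seen. A line (red for the brightest probe set) joins the values of 1 probe set on the arrays. The low probe sets dip at LPS and return, as for Hnrnpk from 2154 to 118 and back to 2164, while the other Hnrnpk lines stay within 0.38 of PBS on the log2 scale.

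Set directly against each other, PTX and LPS differed most in the genes that stood on opposite sides of PBS. At least 2-fold lower in PTX than in LPS were Hnrnpa0 (687 against 2279, -1.71), Snrpa1 (217 against 739, -1.70) and Snrpd3 (831 against 2415, -1.52), 3 genes beside 6.24% of all measured genes. The Snrpd3 value rests on its bright probe set, since its other 2 differed by 0.22 and 0.06. Hnrnpab was higher by its brightest probe set (5629 against 1584, 1.82), 1 gene beside 13.7%. Of the 7 measured Hnrnpab probe sets 5 were below 0 in this comparison and their median was -0.43, so the direction turns on the probe set taken. Among the 4100 brightest genes 6.9% were lower and 7.34% higher. Snrpa1 was at least 2-fold lower in each of its 3 probe sets, the smallest difference being -1.06. Hnrnpll (0.99) and Srsf3 (-0.88) lay just short of 2-fold. By brightest probe set, the lowest and highest within the families were Srsf6 (-0.68) after Srsf3 and Srsf4 (0.21) among SR proteins, Sf3b5 (-0.75) and Sf3a2 (0.48) in SF3, Snrpg as the highest snRNP gene (0.28), and Hnrnpdl (-0.76) after Hnrnpa0 among hnRNP proteins. Of the 4 measured Srsf6 probe sets 1 was below 0 in this comparison and 3 were above, with a median of 0.45. The direction of Srsf6 thus turns on the probe set taken as well. The median of the 45 genes was -0.27, with 31 below 0 (43.5% of all), against 0.09 over all genes. Over the 4100 brightest genes the median was -0.05 and 53.3% were below 0. Under median centring 12 genes were lower and the median was -0.68, and with the hybridization controls it was -0.046, so the size of this shift depends on the scaling. This comparison shares its arrays with the other 2, and it adds no independent values.

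Other parts of the splicing pathway, listed by role, gave few differences of 2-fold. Each gene of the lists here and below was read through its brightest probe set alone. Its other probe sets were not compared, so a difference given for a list gene can belong to a single probe set. As deposited, the medians of all 9 lists lay below 0 in PTX against PBS, from -0.26 to -0.02, against 0.01 over all genes. Of all measured genes 2.37% were at least 2-fold lower and 3.04% higher in PTX, and 13% lower and 6.5% higher in LPS. Among the 4100 brightest genes the lower and higher shares were 1.66% and 5.1% in PTX, and 5.17% and 8.1% in LPS. Among 10 U2AF and branch point factors 0 were at least 2-fold apart in either comparison with PBS, and U2af1, which reads the 3′ splice site AG, was lowest in PTX (1065, 829 and 637, -0.73) and Ddx46 highest (0.24). In LPS Ddx42 was lowest (-0.39) and U2af1l4 highest (0.31). Of 24 other snRNP proteins 2 were lower in PTX, the Lsm ring genes Lsm2 (-1.16) and Lsm6 (-1.07), 1 was higher in LPS (Snrnp27, 1.08), and the medians were 0.15 in LPS and -0.11 in PTX. The U5 scaffold gene Prpf8 was lowest in LPS (-0.50) and Sart1 highest in PTX (0.24). The snRNP assembly genes had a median of -0.26 in PTX with 11 of 14 below 0 and 0 at least 2-fold apart, led by Wdr77, a partner of the methylase Prmt5 (-0.84), with Phax highest (0.22). In LPS 1 of 14 was at least 2-fold higher, Smn1, the core of the complex that loads Sm rings (133 in PBS, 580 in LPS and 92.4 in PTX, 2.00), and Ddx20 was lowest (-0.65). Of 19 catalytic spliceosome genes 0 were apart in PTX and 1 was higher in LPS (Slu7, 1.26), where Prpf18 was lowest (-0.75), with Plrg1 lowest (-0.40) and Snw1 highest (0.65) in PTX. Of 12 exon junction and export genes 0 were apart in PTX, where Ddx39a was lowest (-0.92) and Upf2 highest (0.21), and in LPS Upf1 was higher (1.86) and Thoc2 lower (-2.26).

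In LPS 13% of all measured genes and 5.17% of the 4100 brightest were at least 2-fold lower. In PTX 2.37% and 1.66% were. The counts in the next lists are to be read beside these shares. Of 8 SR protein kinases 2 were lower in LPS, Srpk2 (793 in PBS, 152 in LPS and 475 in PTX, -2.27) and Srpk3 (241, 54 and 254, -1.87), and Clk4 was highest (0.04). In PTX 0 were at least 2-fold apart, with Srpk2 lowest (-0.72) and Clk1 highest (1425, 1347 and 2090, 0.55). Of 14 SR-related genes 3 were lower in LPS (Acin1 -1.87, Srrm2 -1.06, Bclaf1 -1.03) and 0 in PTX, where Tra2b, an activator of exon inclusion, was lowest (2721, 2241 and 1451, -0.90) and Luc7l3 highest (0.27). Luc7l was highest in LPS (0.25). Among 7 hnRNP proteins under other symbols 0 were apart, with Syncrip (hnRNP Q) lowest in both (-0.92 in LPS and -0.93 in PTX) and Ptbp1 highest (0.36 and 0.29). Of 22 other alternative splicing regulators 5 were lower in LPS, with Tia1 lowest (611, 215 and 608, -1.44) and Elavl1 highest (0.15), and 3 were lower in PTX, where Taf15 was highest (0.50). Those lower in PTX were Sfpq (2012, 836 and 605, -1.71), Pspc1 (560, 393 and 231, -1.22) and Mbnl3 (331, 112 and 156, -1.01). The list medians were -0.48 in LPS and -0.04 in PTX. The others lower in LPS were Mbnl3 (-1.44), Sfpq (-1.25), Rbfox2 (-1.22) and Taf15 (-1.20).

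Set against each other, PTX and LPS gave these extremes in the 9 lists. Lowest in PTX were Smn1 (-2.46), Upf1 (-2.07), Lsm2 (-1.73), Slu7 (-1.05), Rbmx (-0.97), Pspc1 (-0.73), Tra2b (-0.62), Phf5a (-0.44) and Srpk1 (-0.18), each in its list. Highest were Thoc2 (2.38), Srpk3 (1.95), Taf15 (1.70), Acin1 (1.54), Pcbp2 (0.67), Prpf18 (0.64), Prpf8 (0.62), Phax (0.59) and Ddx46 (0.45). This comparison uses the arrays of the other 2 again.

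**Figure D4:**
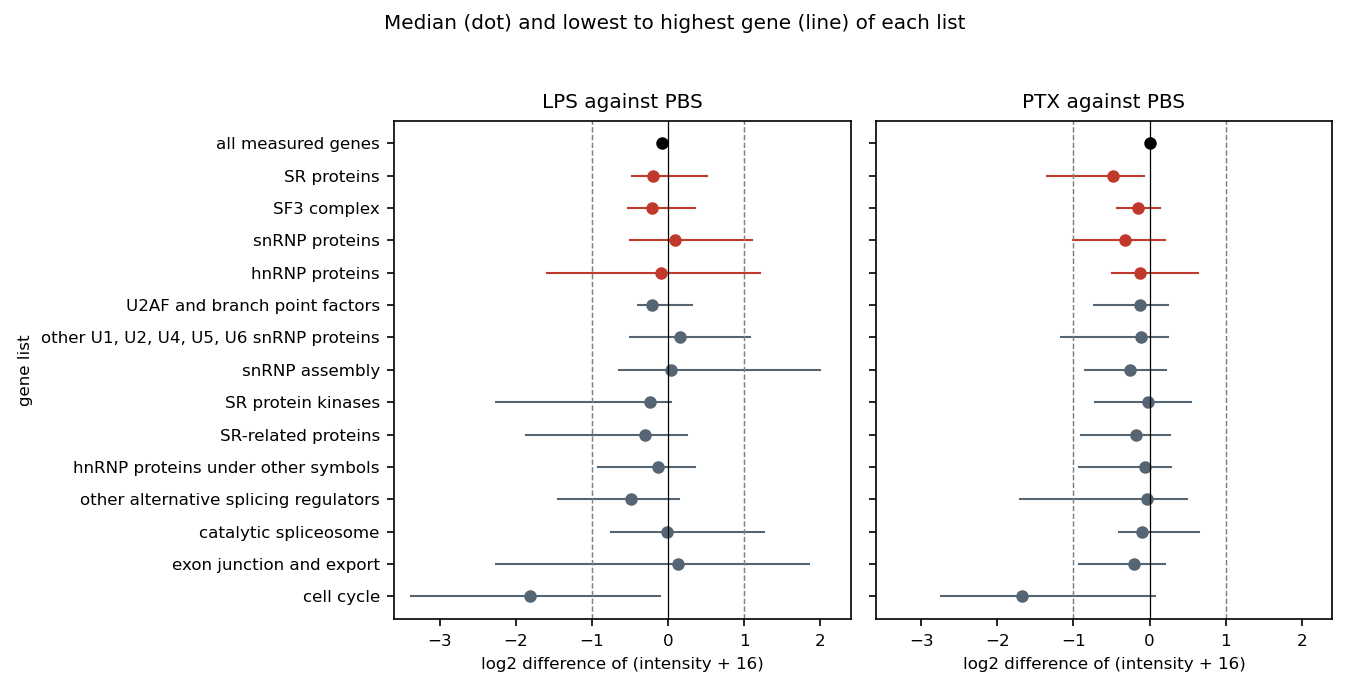
Median log2 difference of each gene list in LPS against PBS and in PTX against PBS, with the lowest and highest member as the ends of each line; no error over samples exists. The cell cycle list stands at -1.82 and -1.68, and the medians of the 4 member families and of the other splicing lists lie between -0.48 and 0.15.

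Genes of dividing cells read low in both comparisons with PBS. Of 25 measured cell cycle genes 21 were at least 2-fold lower in LPS (median -1.82) and 21 in PTX (median -1.68). Of all measured genes 13% were in LPS and 2.37% in PTX. The intensities of the 25 genes summed to 23640 in PBS, 9431 in LPS and 8691 in PTX. The lowest and highest were Ccnb2 (-3.39) and Pcna (-0.11) in LPS, Nusap1 (-2.74) and Tyms (0.07) in PTX, and Mcm5 (-0.92) and Cdc20 (1.64) in PTX against LPS. The part of dividing cells in the splicing gene values was not tested. Reference genes spread to both sides of PBS in PTX. Pgk1 (-0.73) and Ywhaz (-0.45) were below it and B2m (0.58) and Sdha (0.46) above, and the median of 8 was -0.07 with 0 at least 2-fold apart. In LPS their median was 0.24, from Tbp (-0.15) to B2m (1.11, at least 2-fold higher), and in PTX against LPS they ran from Pgk1 (-0.96) to Sdha (0.28). Macrophage and monocyte markers were all measured (11 of 11). Of these, 3 were at least 2-fold higher in LPS and 3 in PTX (6.5% and 3.04% of all measured genes). Mrc1 was at least 2-fold lower in LPS (-2.05). In LPS 5 of the 11 were below 0, among them C1qa, C1qb and C1qc, and in PTX 1 was. The list had a summed intensity of 29277 in PBS, 47174 in LPS and 45202 in PTX. Dendritic cell markers summed to 29070, 45178 and 34443. Of the 15 measured, 6 were at least 2-fold higher in LPS and 2 in PTX, beside 6.5% and 3.04% of all measured genes. In LPS 4 of the 15 were below 0 and in PTX 3 were. Itgax (-0.49 in LPS and -0.87 in PTX), Zbtb46 (-0.30 and -0.41) and Irf4 (-0.70 and -0.26) were below 0 in both. Of 9 neutrophil markers 7 were measured, with sums of 17613, 17848 and 12710. Of 7 mast cell, basophil and eosinophil markers the 2 measured, Prg2 (117, 1274 and 31.4) and Cpa3 (96.3, 550 and 74.2), were high on the LPS array, and the list summed to 382, 2116 and 269. Stromal markers (2 of 7 measured) summed to 387, 757 and 386, with Dcn at 40.8, 373 and 52.5. Erythroid and megakaryocyte markers (4 of 6 measured) summed to 8313, 7000 and 7179, with Ppbp at 2597, 561 and 1301 (-2.18 in LPS). Measured were 3 of 6 T cell, 1 of 5 B cell and 1 of 5 NK cell markers, whose sums stayed between 364 and 374, 583 and 618, and 274 and 318. The part of these cells in the splicing gene values was not tested.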

How the data were processed

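Affymetrix arrays of PBS, LPS and PTX cultures, 1 each, were read from the deposited value table, a linear intensity for each probe set (lowest value 1). Biotin-labelled cRNA was made from total RNA, per the labels' protocols. The summarization program, background correction and scaling the authors used for these intensities were not given in the sources used here. Medians differed between arrays. Values were used as deposited, as log2(intensity + 16), with Python 3.11.15, pandas 2.3.3, numpy 2.4.6 and matplotlib 3.10.9. Genes were named from the platform annotation, and probe sets with several symbols were left out. The number of arrays limits the precision, and no test, SD or p-value was possible.

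Differences of at least 2-fold were counted in 12299 measured genes and in the members. The calling step was run on noise-free copies of the PBS array with planted changes larger than 2-fold. Such a run checks the code and cannot show how reliable a call between single arrays is. The members and lists were chosen with earlier results of these data known. Named are, per comparison, members at least 2-fold apart, the 2 highest and 2 lowest of each family, the 2 brightest of each family, members nearest to 2-fold, genes whose probe sets oppose each other, and each list's highest and lowest gene (the rule covers marker lists too, which are given by counts and sums). Named after their values were seen were Srsf10, Srsf12, Snrpb, Snrpn, Hnrnpk, Lsm6, Prmt5, Srrm2, Bclaf1, Mbnl3, Rbfox2, Ywhaz, the marker genes and the probe sets other than a gene's brightest. Alternatives were other pseudocounts, scalings, filters and choices of probe set. Promoter windows come from RefSeq (GRCm38.p6), where 42 of 47 members matched.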

Additional observations from a re-analysis of the deposited data

How the results depend on the processing

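Each result was recomputed with other pseudocounts, scalings, filters and ways to choose probe sets, and 2 settings were added after seeing the data: the median of measured probe sets, and the PBS and PTX arrays alone for PTX against PBS. Of the summary results over all members 85 stayed within 1.5 times (counts) or 0.1 log2 (medians), 18 moved and 2 reversed. In PTX against PBS the count of genes at least 2-fold apart was 2 and became 1 with a pseudocount of 64. In LPS against PBS it was 3 and became 5 with median or 75th percentile centring and 1 with centring on hybridization controls, with the mean of all probe sets or with the median of measured ones. In PTX against LPS it was 4 and became 13 with median centring, 7 with the 75th percentile, and 2 with the mean or the median of probe sets, and 21 probe sets became 41 with median centring. The members' median of -0.10 in LPS against PBS reversed to 0.29 (median centring) and 0.20 (75th percentile) and moved to -0.29 (quantile) and -0.33 (hybridization controls). That of -0.27 in PTX against LPS moved to -0.68, -0.60 and -0.046 under median, 75th percentile and hybridization control centring, and to -0.10 with the mean or the median of probe sets. Family medians in LPS against PBS reversed to 0.20 and 0.11 (SR), 0.17 and 0.091 (SF3) and 0.29 and 0.21 (hnRNP) with median and 75th percentile centring, to 0.0017 (SR, without probe sets ending in _s_at or _x_at), and for snRNP to -0.093 (quantile), -0.14 (hybridization controls), -0.088 (no filter), -0.018 (mean of probe sets) and -0.13 (median of probe sets). In PTX against LPS SF3 reversed to -0.32, -0.14 and -0.23 (median, quantile and 75th percentile) and hnRNP to 0.11 (hybridization controls). With the median of probe sets Hnrnpab was -0.43 and Snrpd3 0.058 in PTX against LPS. A scaling adds 1 constant per array except for quantile normalization, and the cause of the other shifts was not tested. Srsf3 stayed past 2-fold in PTX against PBS in 13 of 13 alternatives (-1.53 to -1.16), Snrpf in 12 of 13 (-1.11 to -0.93), and in LPS against PBS Hnrnpa0 in 11 of 12, Snrpa1 in 8 of 12 and Hnrnpab in 10 of 12. Srsf2 passed in 1 of 13 and lay between -1.08 and -0.13. No paired analysis was possible because each group holds 1 array. Leaving out a replicate was not possible either.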
